A study of Mus musculus with 17 samples.

Results

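Transcripts of the kidney tubule were followed in macrophages sorted from the kidneys of lupus-prone mice. The genes were a list of 39 that mark the proximal or the distal nephron, and 38 of them had a probe set among the 15780 named genes of the array. They comprised 24 genes of the proximal tubule, 13 of the distal nephron and Gpx6, a glutathione peroxidase family gene that was placed in neither segment. Ass1 is not analysed here. The list was read across all arrays to see whether RNA of tubule cells was present in the sort. It was drawn up with earlier results of these data known: 8 of its genes had already been seen as large increases in remission (Bhmt, Calb1, Dnase1, Gpx6, Hpd, Pvalb, Slc22a29 and Wfdc15b), so their increase is described here and supports nothing.

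F4/80hi cells, those with high levels of a macrophage surface antigen, were sorted by flow cytometry from kidneys of NZB/W mice, a hybrid strain that develops lupus nephritis without any induction. The 4 remission arrays came from mice sampled 3 to 4 weeks after complete remission, which followed 1 dose of cyclophosphamide and 6 doses of both CTLA4Ig and an antibody to CD154, reagents that block T cell costimulation. The 7 nephritic arrays came from mice taken 2 to 6 weeks after proteinuria began and ahead of terminal renal failure, and the 6 prenephritic arrays from mice 8 to 16 weeks old. No age is labelled for mice in nephritis or remission, so age cannot be told apart from disease or treatment. The labels also do not state that the arrays of a group came from separate animals, so the p-values cover the spread between samples only, which may be technical.

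The proximal tubule recovers most filtered solute through sodium-coupled carriers and organic anion transporters, takes filtered protein back by endocytosis, and makes glucose. The thick ascending limb, the distal convoluted tubule and the collecting duct then set the final salt, calcium and water content of the urine. The genes were listed as products of epithelial cells, and F4/80hi macrophages lie in the interstitium directly against those cells.

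All values are the deposited log2 array values, and differences between groups are log2 differences with their standard error from limma, fitted to all 17 arrays and adjusted over the 15780 genes, with an adjusted p under 0.05 as the threshold. The gene of the antigen that defined the sort, Adgre1, had even levels of 13.23 ± 0.14 in remission, 13.24 ± 0.09 in nephritic and 13.08 ± 0.18 in prenephritic arrays (SD, n = 4, 7 and 6). Correlations between whole arrays ran from 0.942 to 0.994. All 38 tubule genes lay above a dim level of 4.34 in every array, which is the 95th percentile of 37 olfactory receptor genes, and 83.5% of all genes had a mean above it. The lowest value of any tubule gene in any array was 5.31, for Scnn1a in a prenephritic array.

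Tubule genes were among the most variable genes of the table, and they varied from array to array inside a group. The median SD within groups was 0.92 over the 38 genes, against 0.18 over all 15780 genes. An SD above 0.5 was found for 33 of the 38 genes and for 7.93% of all genes. The distance between the lowest and the highest array was more than 10-fold for 28 genes, and ran from 1.83-fold for Gatm to 74.8-fold for Dnase1. Within-group spread made up a median of 70.8% of the variance of a tubule gene, below the 76.2% over all genes. For Kap, an androgen-regulated protein of the proximal tubule, it was 94.3%, and for Napsa, an aspartic protease of lysosomes, 99.4%.

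The same arrays were high or low for nearly the whole list. The third nephritic array was the lowest of all 17 in 34 of the 38 genes, and the second remission array was the highest in 33. Of the remaining 5, the first remission array was highest in 4. Within the prenephritic group the third array was the lowest in 31 genes and the sixth the highest in 36, and within remission the fourth was the lowest in 34. The mean of the 38 genes, each centred on its own mean over the 17 arrays, was 1.17, 1.47, 0.72 and 0.04 in the 4 remission arrays. It ran in nephritic arrays from -2.31 (the third) over a median of -0.24 to 0.55, and in prenephritic arrays from -1.04 over a median of -0.00131 to 0.87. The ranges of the groups overlapped, although the first and second remission arrays lay above every other array.

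**Figure D1:**
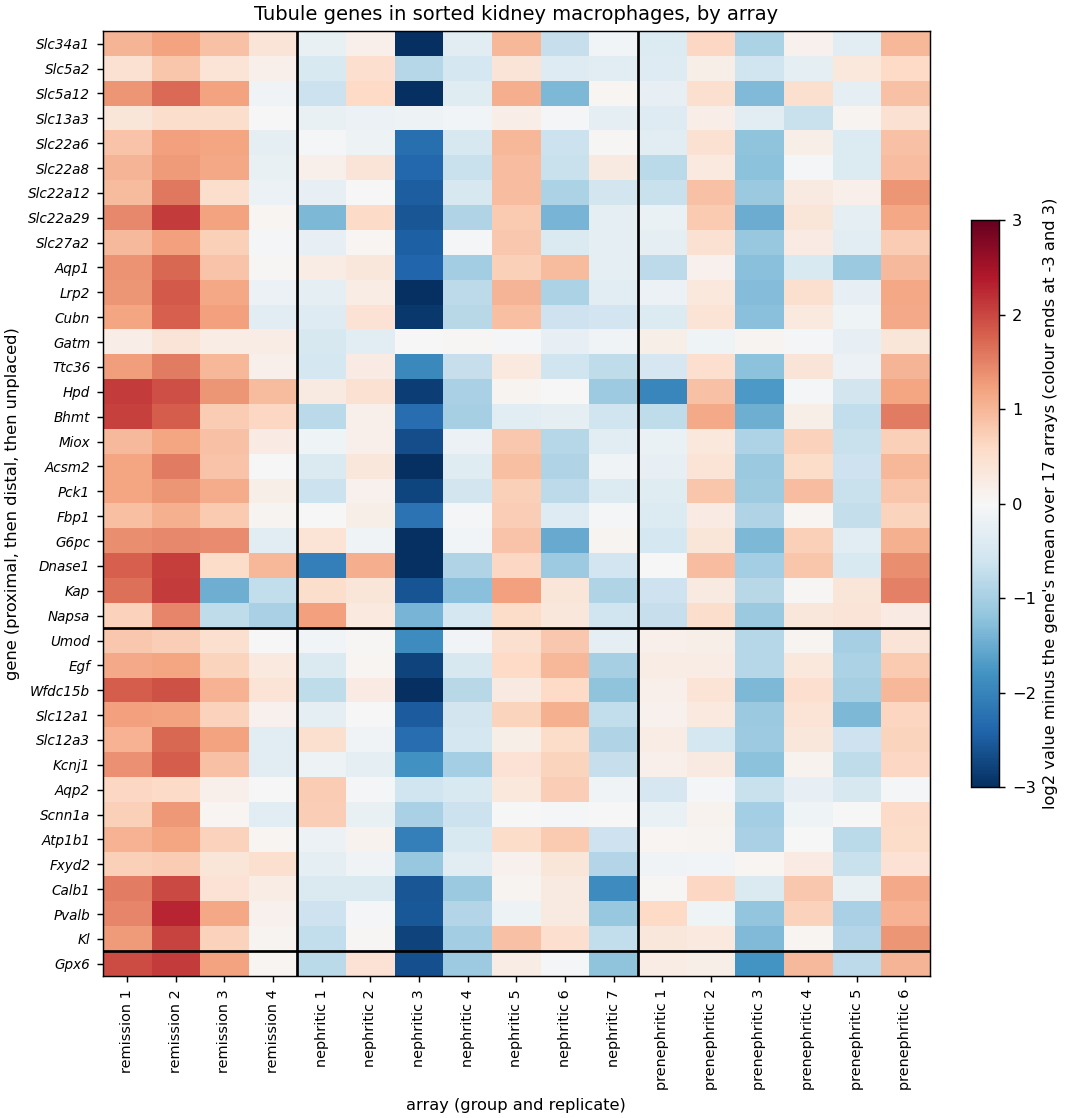
Each row is a tubule gene and each column an array, with remission arrays on the left, then nephritic and prenephritic arrays; the colour is the log2 value minus the mean of that gene over the 17 arrays. The third nephritic array is the lowest column, at a mean of -2.31, and the second remission array the highest, at 1.47.

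How closely the genes moved together was measured within groups, after each group's mean had been removed, as the Pearson correlation of each gene with the mean of the other 37 over the 17 arrays. The points share arrays, RNA preparations and normalization, so the values are descriptive. The correlation was above 0.8 for 31 of 38 genes and above 0.9 for 18, with Cubn and Slc27a2 at 0.97. Of 13134 other genes above the dim level, 6.08% followed the mean of the 38 above 0.8 and 2.40% above 0.9. It was lowest for Gatm (-0.05), Slc13a3 (0.43), Fxyd2 (0.70), Aqp2 (0.71), Scnn1a (0.75), Napsa (0.76) and Slc5a2 (0.76). Without the third nephritic and the second remission array, the 2 farthest from the median, 24 genes stayed above 0.8 and the median correlation was 0.85, against 0.89 with all arrays.

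Proximal and distal means were mostly high or low in the same arrays. The mean of the 24 proximal genes was 0.85 ± 0.62 in remission, -0.45 ± 0.97 in nephritic and -0.03 ± 0.73 in prenephritic arrays (SD, n = 4, 7 and 6), and that of the 13 distal genes was 0.82 ± 0.60 in remission, -0.40 ± 0.89 in nephritic and -0.08 ± 0.62 in prenephritic arrays. The widest gap between segments was in the sixth nephritic array, where the proximal mean was -0.55 and the distal mean 0.58. The first prenephritic array came next, with -0.47 and 0.10. In remission the gap between the segments was at most 0.09.

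**Figure D2:**
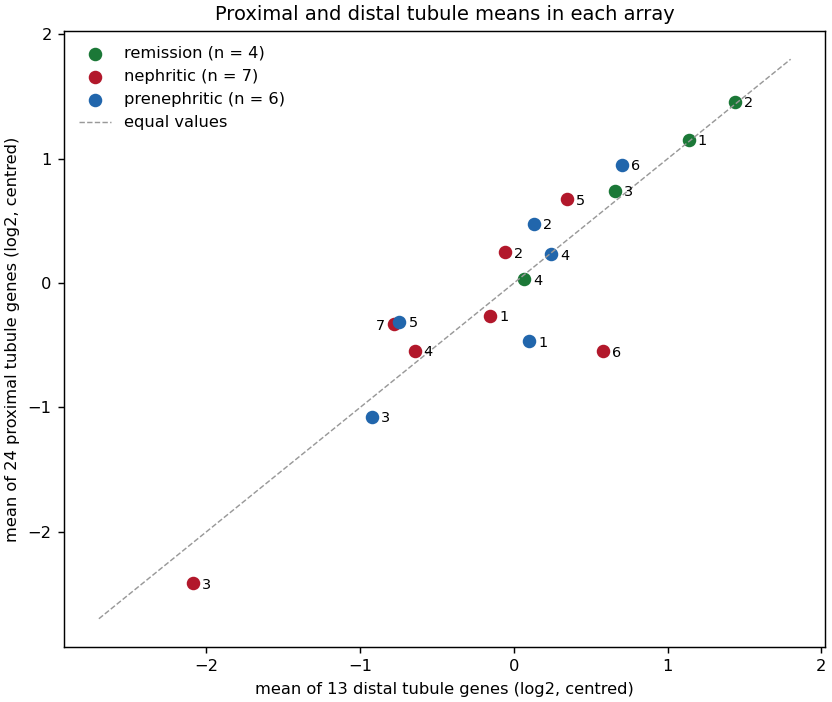
Each point is an array, numbered by replicate and coloured by group, with the mean of the 13 distal genes on the x axis and of the 24 proximal genes on the y axis (log2, centred per gene). The sixth nephritic array lies farthest from the dashed line of equal values, at 0.58 distal and -0.55 proximal, followed by the first prenephritic array, at 0.10 distal and -0.47 proximal.

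The first comparison asked whether tubule RNA differed between treated mice in remission and mice with active nephritis. All 38 tubule genes had a higher mean in remission arrays, by a median of 1.28, while the median over all genes was -0.03. Of the 38, 11 rose past the threshold and none fell, with 6 proximal genes, 4 distal genes and Gpx6 among them; among all genes 3.27% were called higher and 13.3% in either direction. The 11 include all 8 genes that earlier results had pointed to, and 3 of the other 30, Gatm, Ttc36 and Fxyd2. At an unadjusted p under 0.05 there were 31, and 10.8% of all genes were higher at that level. Of these 31, 8 were the genes seen earlier and 23 were among the other 30. In RNA from a sorted population, fewer cells of a type and less RNA per cell cannot be told apart.

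The count depended on which array was left out, and the share of all genes called higher moved with it. Without the second remission array the count was 0 (1.15% of all genes), with 13 at an unadjusted p under 0.05 (6.51% of all genes). It was 1 without the first remission array (Gatm; 1.24% of all genes), 5 without the third (2.10%) and 16 without the fourth (6.22%). Among nephritic arrays, the count was 7 without the first (2.48% of all genes), 9 without the third (2.86%), 6 without the fourth (2.29%), 16 without the fifth (3.54%) and 6 without the seventh (2.36%). By gene, the call was lost on leaving out 1 of the 17 arrays for Gatm, either of 2 for Bhmt, Fxyd2, Calb1 and Pvalb, any of 3 to 7 for Ttc36, Hpd, Gpx6 and Wfdc15b, and any of 10 for Slc22a29. The mean difference over the 38 genes stayed positive, at 1.29 with all arrays and from 0.98 to 1.56 with each array left out in turn. With the mean of other tubule genes as a covariate, described with the next comparison, it was 0.37.

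**Figure D3:**
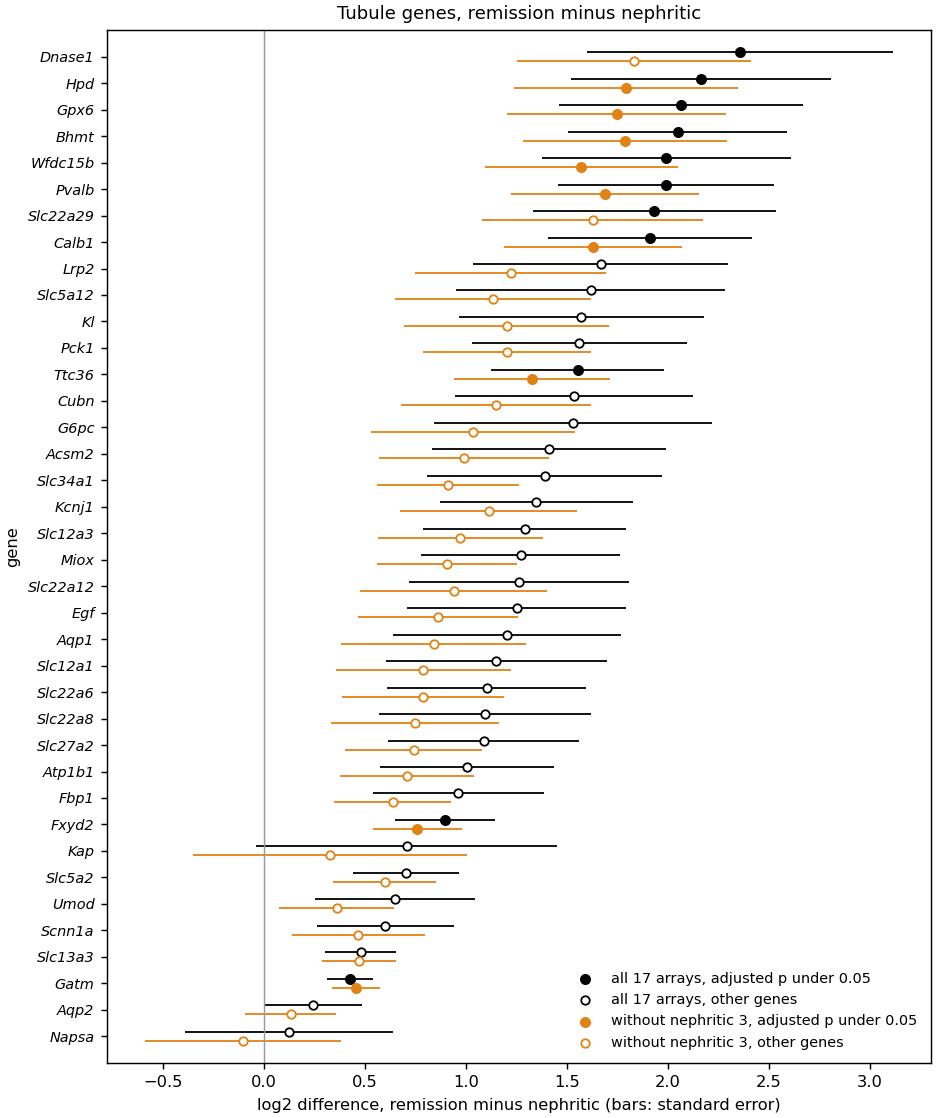
Each row is a tubule gene with its log2 difference, remission minus nephritic, and a bar of 1 standard error. Black points are from the fit to all arrays and orange points from the fit without the third nephritic array. Filled points passed an adjusted p of 0.05. All 38 black points lie right of 0, from 0.12 for Napsa to 2.36 for Dnase1. Of the orange points 37 lie right of 0, and that of Napsa lies left of it, at -0.10.

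Among the carriers of the proximal tubule, Slc22a29, a member of the organic anion transporter family, had 10.87, 11.52, 10.64 and 9.49 in remission arrays, from 6.87 over a median of 8.53 to 10.21 in nephritic arrays, and from 7.93 over 9.51 to 10.58 in prenephritic arrays. The first 3 remission arrays lay above every array of both other groups, and the fourth among them. Its difference between remission and nephritic arrays was 1.93 ± 0.60 (3.82-fold, adjusted p = 0.043 by limma). The other 9 carriers and channels did not pass. They were higher in remission by 0.48 ± 0.17 for the dicarboxylate carrier Slc13a3 and by up to 1.62 ± 0.67 for the lactate carrier Slc5a12. Between these lay the phosphate carrier Slc34a1 (1.39 ± 0.58, adjusted p = 0.12), the glucose carrier Slc5a2 (0.70 ± 0.26, adjusted p = 0.083) and the water channel Aqp1 (1.20 ± 0.56, adjusted p = 0.17). The organic anion transporters Slc22a6 and Slc22a8, the urate carrier Slc22a12 and the fatty acid carrier Slc27a2 had differences of 1.09 to 1.26. The endocytic receptors megalin (Lrp2) and cubilin (Cubn), which recover filtered protein, were higher in remission by 1.67 ± 0.63 and 1.54 ± 0.59 and did not pass either (adjusted p = 0.089 and 0.093).

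The genes whose remission and nephritic arrays did not overlap were enzymes of amino acid and creatine metabolism. Hpd, an enzyme of tyrosine breakdown, had 10.46, 10.32, 9.71 and 9.32 in remission arrays, from 5.55 over a median of 8.36 to 8.83 in nephritic arrays, and from 6.43 over 8.08 to 9.56 in prenephritic arrays. All remission arrays exceeded all nephritic arrays, by a difference of 2.16 ± 0.64 (4.48-fold, adjusted p = 0.035 by limma). Bhmt, which remethylates homocysteine with betaine, had 10.19, 9.95, 8.90 and 8.75 in remission, from 5.84 over 7.53 to 8.28 in nephritis, and from 6.67 over 7.84 to 9.68 in prenephritic arrays. Again remission and nephritic arrays did not overlap, with a difference of 2.05 ± 0.54 (4.14-fold, adjusted p = 0.020). Gatm, which carries out the opening step of creatine synthesis, had 11.42, 11.62, 11.44 and 11.46 in remission, from 10.75 over 11.12 to 11.26 in nephritis, and from 10.97 over 11.24 to 11.59 in prenephritic arrays. Its shift was small, 0.43 ± 0.11 (1.34-fold, adjusted p = 0.021), and its spread was the lowest of the list (within-group SD 0.19). Gatm did not follow the other genes of the list within groups (correlation -0.05). It had 11.23 in the third nephritic array, where 34 of the 38 genes were lowest. Whether its signal came from tubule cells was not tested. Hpd, Bhmt and Gatm were the 3 of 38 genes with all remission arrays above all nephritic ones, against 1.70% of all genes. Hpd and Bhmt were 2 of the 8 genes seen earlier as large increases in remission, so their separation supports nothing. Of the other 30 genes, 1 (Gatm) was separated in this way.

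Ttc36, a tetratricopeptide repeat protein of kidney and liver, had 10.57, 10.89, 10.33 and 9.47 in remission arrays, from 7.40 over a median of 8.73 to 9.62 in nephritic arrays, and from 8.10 over 9.43 to 10.34 in prenephritic arrays. Only the fourth remission array fell inside the nephritic range, and the difference was 1.55 ± 0.43 (2.94-fold, adjusted p = 0.024). The remaining enzymes were Miox, which breaks down inositol, Acsm2, a medium-chain acyl-CoA synthetase, and the glucose-producing Pck1, Fbp1 and G6pc. None of these 5 passed, with differences of 0.96 to 1.56 and the lowest adjusted p, 0.061, for Pck1.

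The secreted and lysosomal proximal genes differed widely among themselves. Dnase1, a secreted endonuclease, had 12.22, 12.51, 10.97 and 11.42 in remission arrays, from 6.28 over a median of 9.52 to 11.51 in nephritic arrays, and from 9.40 over 10.84 to 11.83 in prenephritic arrays. The first and second remission arrays lay above all others, and the third and the fourth inside both ranges. Its difference was the largest of the list, 2.36 ± 0.76 (5.13-fold), with an adjusted p of 0.049. This call was lost on leaving out any 1 of 13 of the 17 arrays, all 4 remission arrays and the third nephritic array among them, with an adjusted p of 0.052 to 0.16. Kap had 12.13, 12.58, 9.01 and 9.73 in remission, from 7.89 over 10.84 to 11.70 in nephritis, and from 9.65 over 10.63 to 11.99 in prenephritic arrays. Its remission arrays were split, with the first and second above every other array and the third and the fourth below the medians of both other groups. The remission arrays of Napsa had 11.22, 12.01, 9.78 and 9.56, with the third and the fourth again the lowest. Neither differed between the groups beyond the spread (0.71 ± 0.74 for Kap and 0.12 ± 0.51 for Napsa).

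Of the distal secreted products, Wfdc15b, a protein with a whey acidic protein domain, had 12.18, 12.29, 11.41 and 10.78 in remission arrays, from 7.15 over a median of 9.62 to 10.97 in nephritic arrays, and from 9.04 over 10.66 to 11.38 in prenephritic arrays. The first 3 remission arrays exceeded all arrays of the other groups, and the difference was 1.99 ± 0.62 (3.98-fold, adjusted p = 0.042). Uromodulin (Umod) and Egf, products of the thick ascending limb and distal convoluted tubule, were higher by 0.65 ± 0.40 and 1.25 ± 0.54 and did not pass (adjusted p = 0.30 and 0.13).

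Fxyd2, the gamma subunit of the sodium pump, had 13.17, 13.22, 12.82 and 12.94 in remission arrays, from 11.32 over a median of 12.17 to 12.83 in nephritic arrays, and from 11.78 over 12.45 to 12.89 in prenephritic arrays. Remission and nephritic arrays touched only at 12.82 and 12.83, and the difference was 0.90 ± 0.25 (1.86-fold, adjusted p = 0.025). The beta subunit Atp1b1 (1.00 ± 0.43), the sodium chloride cotransporters Slc12a1 (1.15 ± 0.55) and Slc12a3 (1.29 ± 0.50) and the potassium channel Kcnj1 (1.35 ± 0.48) did not pass, with adjusted p from 0.070 to 0.17. Among the 13 distal genes the least different were Scnn1a of the epithelial sodium channel, by 0.60 ± 0.34, and the vasopressin-controlled water channel Aqp2, by 0.25 ± 0.24. These 2 genes of the collecting duct also had the lowest mean levels of the list, at 6.34 and 6.82.

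The calcium-binding proteins of the distal tubule both rose. Calbindin (Calb1) had 11.39, 11.83, 10.30 and 10.08 in remission arrays, from 7.28 over a median of 9.41 to 10.13 in nephritic arrays, and from 9.42 over 10.18 to 10.98 in prenephritic arrays. Parvalbumin (Pvalb) had 10.79, 11.60, 10.49 and 9.46 in remission, from 6.78 over 8.69 to 9.58 in nephritis, and from 8.15 over 9.55 to 10.35 in prenephritic arrays. For both, the first 3 remission arrays were above all nephritic arrays and the fourth was not. The difference was 1.91 ± 0.50 for Calb1 (3.77-fold, adjusted p = 0.019, the lowest of the list) and 1.99 ± 0.53 for Pvalb (3.97-fold, adjusted p = 0.021).

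Klotho (Kl), a coreceptor for the phosphate-regulating hormone FGF23, had 10.23, 10.97, 9.64 and 9.04 in remission arrays, from 6.18 over a median of 8.21 to 9.83 in nephritic arrays, and from 7.62 over 9.12 to 10.27 in prenephritic arrays. The third and the fourth remission arrays lay within both ranges, and the difference of 1.57 ± 0.61 did not pass (adjusted p = 0.094). Gpx6 had 10.09, 10.22, 9.32 and 8.18 in remission, from 5.48 over 7.31 to 8.56 in nephritis, and from 6.34 over 8.32 to 9.14 in prenephritic arrays. Its first 3 remission arrays exceeded all arrays of both other groups, with a difference of 2.06 ± 0.60 from nephritic arrays (4.18-fold, adjusted p = 0.033).

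**Figure D4:**
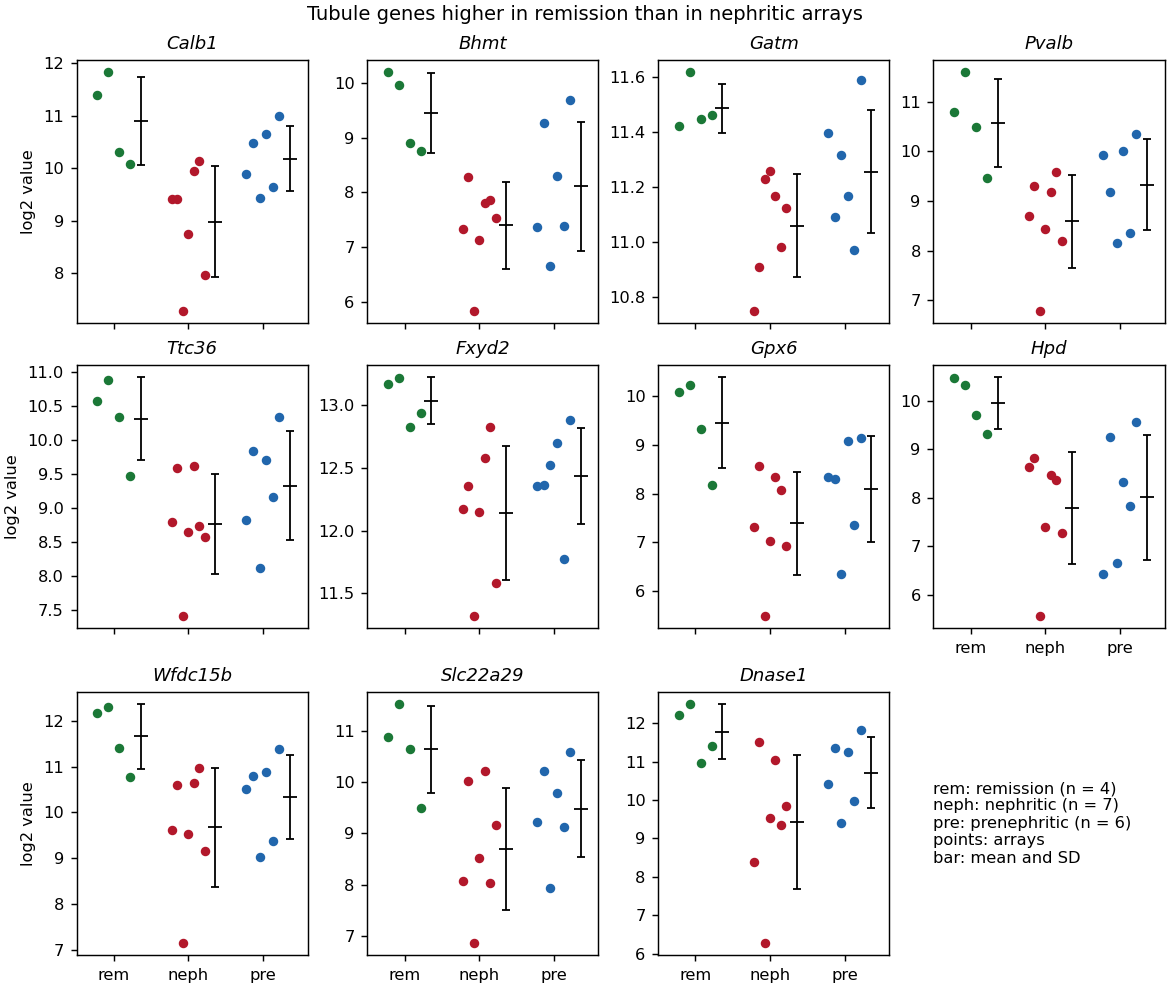
Each panel is one of the 11 tubule genes that passed the threshold between remission and nephritic arrays; points are arrays (log2 value), with remission on the left, then nephritic and prenephritic, and the bars show the mean and SD. Gatm, Hpd and Bhmt have no overlap between remission and nephritic arrays; in the other panels at least 1 remission array, most often the fourth, lies inside the nephritic range.

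The second comparison set active nephritis against the prenephritic kidney. None of the 38 genes passed in either direction, where 6.74% of all genes were called higher and 5.32% lower, and 1 (Calb1) was lower at an unadjusted p under 0.05, as were 12.8% of all genes. The tubule genes were lower in nephritic arrays for 34 of 38, by a median difference of -0.42 against -0.02 over all genes. Calb1 and Dnase1 stood furthest down, at -1.19 ± 0.45 (adjusted p = 0.098) and -1.29 ± 0.67 (adjusted p = 0.25). The 4 genes with a higher mean in nephritic arrays were Aqp2 (0.42 ± 0.21), Aqp1 (0.20 ± 0.50), Umod (0.03 ± 0.35) and Napsa (0.03 ± 0.46). The size of this lean depended on which arrays were kept, and most on the third nephritic array. Without it 14 of 38 genes were higher in nephritic arrays, the median was -0.07, and the mean difference over the genes was -0.08, against -0.39 with it. Without the third prenephritic array, the lowest of its group, the mean difference was -0.59. Without the sixth prenephritic array it was -0.21, with 10 genes higher in nephritic arrays. With the third array of both groups left out, a choice made after seeing the data, it was -0.28, with 7 genes higher.

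Since the arrays of a group differed in the level of the whole list, the genes were also compared after the mean of 89 other tubule genes in the same array, none of them among the 38, had been entered as a covariate. That covariate is itself measured on these arrays, and the result is relative to it. Its proximal portion had a mean of -0.24 ± 0.87 in nephritic and -0.20 ± 0.74 in prenephritic arrays, and its distal portion -0.11 ± 0.72 and -0.28 ± 0.51. In remission arrays these portions averaged 0.72 ± 0.75 and 0.61 ± 0.63. The covariate thus had a higher mean in remission, and entering it takes up part of any remission difference that the genes share with it. Relative to it, 13 of the 38 genes fell in nephritic arrays and none rose, where 8.53% of all genes were called lower and 8.71% higher. Of the 13, 7 were among the 8 genes seen earlier as higher in remission than in these nephritic arrays, so that count is not independent of how they were chosen, and 6 were among the other 30. They were Calb1 (-1.26 ± 0.21, adjusted p = 0.00074), Ttc36 (-0.63 ± 0.14, adjusted p = 0.0054), Cubn (-0.66 ± 0.16, adjusted p = 0.0089), Lrp2 (-0.76 ± 0.20, adjusted p = 0.015), Slc22a12 (-0.76 ± 0.20, adjusted p = 0.015), Pvalb, Gpx6, Kl, Dnase1, Pck1, Bhmt, Wfdc15b and Slc22a29. The last 8 had differences of -0.61 to -1.38 and adjusted p from 0.021 to 0.045.

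The 13 included both endocytic receptors, a urate and an organic anion carrier, 3 metabolic genes and both calcium-binding proteins, while Slc13a3, Umod, Napsa, Slc12a1, Fbp1 and Atp1b1 did not pass. Slc22a12, Lrp2, Cubn, Ttc36, Calb1 and Pvalb kept an adjusted p under 0.05 with each of the 17 arrays left out in turn. The count over all 38 ran from 7 (without the first nephritic array) to 15 (without the fourth). It was 8 without the third nephritic, the second prenephritic or the fourth prenephritic array. It was also 8 with the other proximal genes alone as the covariate, a choice made after seeing the data, and Pvalb was not among those 8. The share of all genes called was not computed for these variants of the covariate fit. With the same covariate 5 genes remained higher in remission than in nephritic arrays (Gatm, Ttc36, Bhmt, Calb1 and Pvalb), where 3.53% of all genes were called higher. The median difference of the 38 was then 0.34 in place of 1.28, with 34 above 0. The covariate, which itself had a higher mean in remission, takes up part of that difference.

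**Figure D5:**
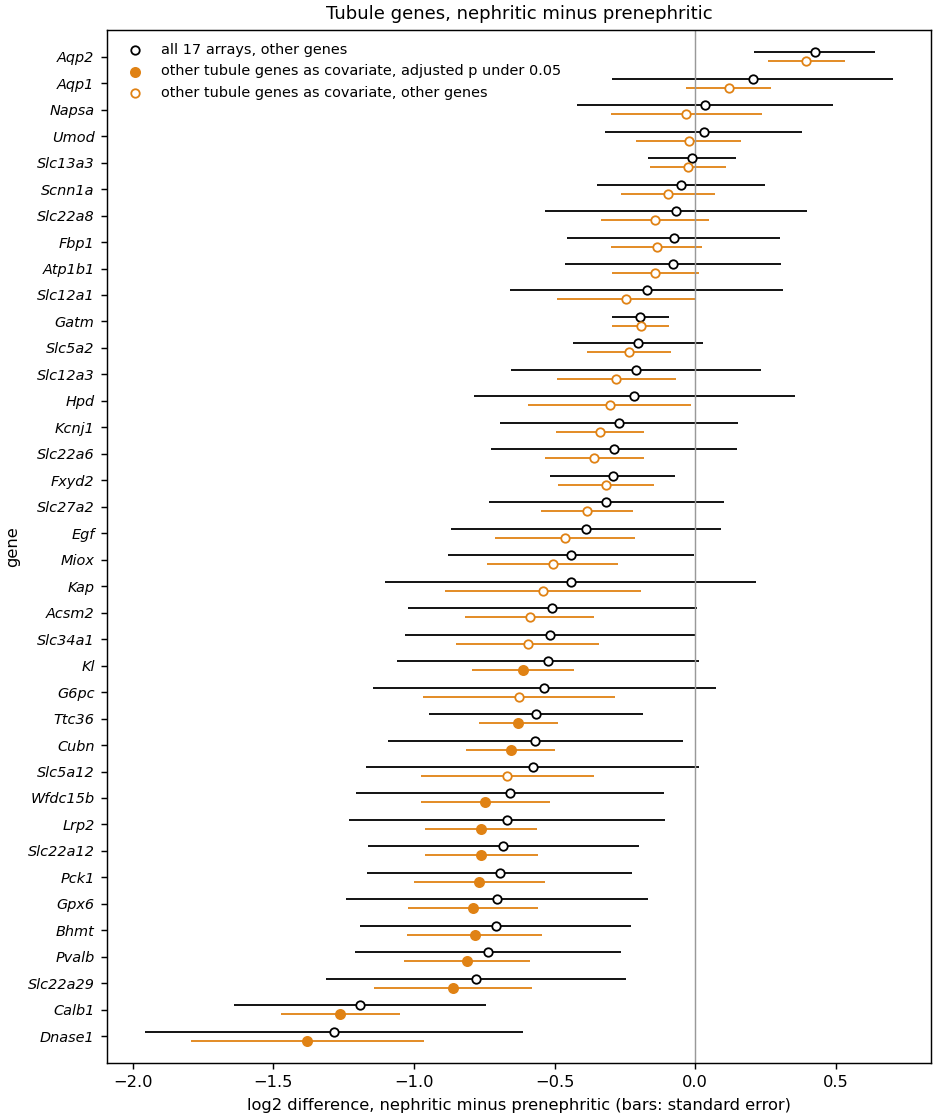
Each row is a tubule gene with its log2 difference, nephritic minus prenephritic, and a bar of 1 standard error, in black from the fit without a covariate and in orange with the mean of 89 other tubule genes as covariate; filled points passed an adjusted p of 0.05. None of the black points and 13 of the orange points are filled, and the orange bars are shorter.

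The third comparison set remission against the prenephritic kidney. None of the 38 genes passed, and among all genes 0% were called higher and 0.00634% lower. All 38 means were higher in remission, by a median of 0.91 against -0.05 over all genes, and 10 genes had an unadjusted p under 0.05, where 6.38% of all genes were higher at that level. Of these 10, 4 were among the 8 genes seen earlier and 6 were among the other 30. The differences ran from 0.16 ± 0.53 for Napsa to 1.95 ± 0.66 for Hpd (adjusted p = 0.20). Aqp2 alone had all remission arrays above all prenephritic ones, where 0.393% of all genes did: it had 7.44, 7.40, 6.98 and 6.82 in remission, from 6.23 over a median of 6.79 to 7.58 in nephritis, and from 6.15 over 6.46 to 6.78 in prenephritic arrays. This difference, 0.67 ± 0.25, did not pass (adjusted p = 0.22). Relative to the 89 other tubule genes, which themselves had a higher mean in remission, the median was -0.08, with 16 of 38 above 0 and none past the threshold. The remission arrays enter both this comparison and the first, so the values of the pair are not independent.

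Tubule genes outside the list were checked for the same shift. Of 45 other proximal genes none passed between remission and nephritic arrays, but 43 had a higher mean in remission (median 1.09), and 37 followed the mean of the 38 genes within groups at a correlation above 0.8. Of 44 other distal genes, Bsnd, a subunit of kidney chloride channels (0.91 ± 0.27, adjusted p = 0.036), and Ptger3, a prostaglandin E receptor (1.90 ± 0.59, adjusted p = 0.043), rose, and Krt19, a keratin, fell by 0.63 (adjusted p = 0.014). The median of these 44 was 0.81, and 25 followed the mean of the 38 genes within groups at a correlation above 0.8. That share was 6.08% over the 13134 genes above the dim level that are not on the list. Of 13 transcription regulators of the nephron, Lhx1 (1.07 ± 0.26, adjusted p = 0.012) and Ppargc1a (1.64 ± 0.49, adjusted p = 0.037) rose in remission. All 13 had a higher mean there, among them Hnf4a, a proximal regulator (1.19 ± 0.46, adjusted p = 0.096), and Tfap2b, a distal one (1.59 ± 0.53, adjusted p = 0.059). None of these 3 lists had a gene past the threshold between nephritic and prenephritic arrays.

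Genes that tubule cells are known to induce on injury were listed separately. Of 9 measured, Lcn2 (lipocalin) and Vcam1 rose in nephritic over prenephritic arrays by 2.99 ± 0.39 and 1.39 ± 0.21 (adjusted p = 0.00014 and 0.00043), and both fell in remission against nephritis by 2.06 and 1.03 (adjusted p = 0.0062 and 0.0092). Macrophages also express these 2 genes. Havcr1 (KIM-1), the injury marker of the proximal tubule, averaged 5.41 ± 0.67 in remission, 6.19 ± 0.57 in nephritic and 5.35 ± 0.41 in prenephritic arrays (SD, n = 4, 7 and 6), and its difference of 0.84 ± 0.28 between nephritic and prenephritic arrays did not pass (adjusted p = 0.063).

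Markers of the sorted cells and of other cells were read in the same arrays. The mean level of 17 macrophage genes lay between 12.35 and 12.60 in remission, 12.56 and 12.76 in nephritic and 12.30 and 12.57 in prenephritic arrays. Of these, 3 fell in remission against nephritis (Itgam, Mertk and Fcgr1). The same 3 were higher in nephritic than in prenephritic arrays, by 2.09, 1.22 and 0.63, and 1 other was lower. The macrophage mean thus holds genes that differed between the groups. The third nephritic array, lowest in tubule genes, had the highest macrophage mean of the 17 arrays, at 0.22 above the average. The mean of 10 podocyte genes lay between 6.30 and 6.67 in remission and 6.16 and 6.63 in nephritic arrays, with none past the threshold. In nephritic against prenephritic arrays 1 podocyte gene (Ptpro) was lower. The mean of 14 endothelial genes lay between 7.32 and 7.96 in remission and 7.07 and 7.82 in nephritic arrays, with Ehd3 higher and Pecam1 lower in remission, and 11 of the 14 had a higher mean in remission (median 0.43). Pecam1 alone of these passed between nephritic and prenephritic arrays, and was higher in nephritis. The mean of 13 fibroblast and mesangial genes lay between 6.66 and 7.28 in remission, 6.72 and 7.52 in nephritic and 6.54 and 7.18 in prenephritic arrays, with 1 higher and 2 lower in remission than in nephritis. In nephritic against prenephritic arrays 3 of these were higher and 1 lower. Of 7 B and plasma cell genes, 5 were higher in nephritic than in prenephritic arrays and 3 lower in remission than in nephritis, with a mean between 6.72 and 6.79 in remission, 7.18 and 8.41 in nephritic and 6.00 and 7.51 in prenephritic arrays. Of 9 T and NK cell genes, 5 were lower in remission than in nephritis, and between nephritic and prenephritic arrays 3 were higher and 1 lower. Their mean lay between 5.22 and 5.46 in remission, 5.54 and 6.11 in nephritic and 5.39 and 6.11 in prenephritic arrays. None of 6 neutrophil and 3 erythrocyte genes passed in any comparison. Only 3 of the neutrophil genes and 1 of the erythrocyte genes had a mean above the dim level. That erythrocyte gene, Slc4a1, is also among the other distal genes. The absence of calls therefore says little about RNA of these cells. RNA integrity was read as the log2 difference of 3′ minus 5′ probe sets. For Gapdh it lay between 0.89 and 1.17 in remission, 0.94 and 1.15 in nephritic and 0.92 and 1.34 in prenephritic arrays. For actin it lay between 0.56 and 0.74 in remission, 0.52 and 0.73 in nephritic and 0.47 and 0.84 in prenephritic arrays. The part of any of these in the tubule differences was not tested.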

How the data were processed

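RNA of sorted F4/80hi kidney macrophages was hybridised to Affymetrix arrays. The deposited values are on the log2 scale and were made by the authors with RMA (background correction, quantile normalization and probe summary), per the submitters' processing notes; its version, the probe definition and the genome build were not stated there. RMA forces the probe signals of the arrays to a common distribution, so total RNA per cell cannot be read, and dim differences are compressed. Of 16539 probe sets, 64 were controls and 695 others had no symbol; the 15780 with a symbol, 1 per gene, were tested. All 38 members matched the RefSeq table by Entrez identifier. The number of arrays limits the precision.

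A linear model with a mean for each of the groups remission, nephritic and prenephritic was fitted to all 17 arrays with limma 3.58.1 in R 4.3.3, leaving 14 residual degrees of freedom; moderated tests were two-sided, with Benjamini-Hochberg adjustment over 15780 genes. The fit was tested on simulated data. The members, gene lists and tests were chosen with earlier results of these data known. Every measured member was named, and values by array are given for members past the threshold and for the 2 proximal and 2 distal members with the highest within-group SD. Of other genes, the 10 most and 5 least like the member mean are named, and up to 3 of a list by smallest p; Hnf4a, Tfap2b and Havcr1, named beside these, and Aqp2 and Napsa, given by array in part, were chosen after their values were seen. Alternatives changed the filter, normalization, scaling, variance prior, array weights, groups fitted, replicate block, genes tested and covariate, and left out each array. A scan of promoter sequences is not reported here.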

Additional observations from a re-analysis of the deposited data

Results flagged for a closer look

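In 123 groups of array values (38 genes and 3 means in each group of samples), 8 had an array far from the rest of its group by Dixon's test. Chance alone gives about 1 in 20, and 8 of 123 is near that share. The 123 are not independent, since the genes moved together and the means are taken over them. Of the 8, 6 concern the third nephritic array, which was low. Slc34a1 was 7.43 there against a group median of 10.58, Slc27a2 9.34 against 11.53, Fbp1 9.67 against 11.85 and Umod 10.49 against 12.30. The mean of the 38 centred genes was -2.31 in that array and the mean of the 24 proximal genes -2.41, against group medians of -0.24 and -0.33. In the fourth remission array, Slc22a8 was 7.82 against a median of 9.14, and G6pc was 9.41 against 11.13.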

How the results depend on the processing

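Between remission and nephritic arrays, the 11 tubule genes that rose became 21 with array weights (7.85% of all genes called higher) and 21 with the replicate number as a block (6.74%), against 3.27% in the fit reported. They became 5 with the other tubule genes as covariate (3.53%), 9 in a fit of only those groups (3.01%) and 10 with a robust variance prior (3.17%). Leaving out 1 array gave 0 to 16, with 1.15% to 6.22% of all genes called higher. With both lowest arrays (the third nephritic and the third prenephritic) left out, a choice made after seeing the data, the count was 11 (2.94%). Between nephritic and prenephritic arrays the count was 0, and 13 with the covariate (8.53% of all genes called lower). That 13 was 8 with the other proximal genes alone as covariate and 7 to 15 with 1 array left out. The share of all genes called was not computed for these covariate fits. Between remission and prenephritic arrays the count was 0 under every alternative run. The mean difference over the members kept its direction with 1 array left out, where it ran from 0.98 to 1.56 (remission minus nephritic), -0.59 to -0.08 (nephritic minus prenephritic) and 0.69 to 1.17 (remission minus prenephritic). Without the 8 genes seen earlier it was 1.09, -0.29 and 0.80. With the covariate, a mean taken after seeing the data, it was 0.37, -0.46 and -0.09, so remission minus prenephritic changed direction. That covariate itself had a higher mean in remission arrays.

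Some members' differences changed sign, none of them past the threshold. With the covariate, 22 of 38 did so in remission minus prenephritic, 4 in remission minus nephritic and 2 in nephritic minus prenephritic. Without the third nephritic array, 10 did so in nephritic minus prenephritic and 1 (Napsa, -0.10) in remission minus nephritic. With the covariate, the 4 in remission minus nephritic were Kap (-0.63), Napsa (-0.75), Umod (-0.059) and Aqp2 (-0.15), and the 22 in remission minus prenephritic included Slc22a29 (-0.00440), Dnase1 (-0.28), Calb1 (-0.28), Kap (-1.17) and Kl (-0.24). Cause was not tested in these cases. Replicate numbers were not used to pair the samples in the fit reported. The deviations of same-numbered arrays correlated above 0.1 in 8 of 14 pairs (range -0.26 to 0.80). Arrays with different numbers were not compared in this way, so these values cannot decide whether the numbers pair the samples. With the replicate block, none of the 38 passed between nephritic and prenephritic or between remission and prenephritic arrays, where 5.99% and 1.48% of all genes were called higher and 4.78% and 1.55% lower.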

Other observations

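Among 13134 genes that are not on the list and lay above the dim level, 315 (2.40%) followed the mean of the 38 tubule genes within groups at a correlation above 0.9 over the 17 arrays, and 107 ran below -0.8. The closest were Slc6a20b, an imino acid carrier (0.99), Slc1a1, a glutamate carrier, Hlf, a transcription factor, Pdzk1ip1, Pth1r, the parathyroid hormone receptor, Pipox, Slc47a1, an organic cation exporter, Slc4a4, the sodium bicarbonate cotransporter, Chchd10 and Cth, all at 0.98 or 0.99. Their differences between remission and nephritic arrays were 1.08 ± 0.54 (Pth1r) to 1.71 ± 0.56 (Cth), and none passed (lowest adjusted p = 0.053, for Cth). The genes that ran most against the tubule mean were Ncoa3 (-0.94), Zfat (-0.93), Nfatc2 (-0.89), Pitx1 (-0.89) and Myo15 (-0.89). The spread of these 5 was small, with a within-group SD of 0.09 to 0.17, against 0.76 to 1.11 for the 10 most alike. RMA brings the probe signals of all arrays to a common distribution before they are summarised. The medians of the deposited values still ran from 7.49 in the third nephritic array to 7.68 in the sixth prenephritic array. The part of the normalization in the opposed values was not tested.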
